A study of Mus musculus with 27 samples.

Results

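The phagocyte NADPH oxidase genes Cybb, Cyba, Ncf1, Ncf4 and Rac2 were followed in mouse tibialis anterior muscle through the weeks after volumetric muscle loss (VML), the removal of a piece of muscle too large for the tissue to replace. Nox4, an oxidase gene used by cells other than phagocytes, was followed beside them as a contrast. These 6 genes were taken by symbol from a table of 54532 genes, each symbol matched 1 row, and all 6 were among the 14630 genes that were tested. They were chosen by name as parts of the enzyme, with earlier results of these data known.

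Muscle was sampled from 8-week-old male C57BL/6 mice in which 40% of the tibialis anterior had been excised, and from control mice. There were 5 uninjured control samples, labelled only as control, and 5, 6, 6 and 5 samples at 3, 7, 14 and 21 days after VML. No transgene, drug or other treatment was named for any group. Excision was described as unilateral in the study's design text and as bilateral in its methods, and nothing said whether samples of a group came from separate mice, so p-values measure the spread between these samples, which may include limbs of the same animal. The RNA was poly-A selected and sequenced without strand information, and levels are given as FPKM, fragments per kilobase of gene scaled to the depth of the sample, which can be compared between genes of different length.

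The phagocyte oxidase is an enzyme that moves electrons from NADPH across a membrane onto oxygen to make superoxide, the start of the oxidative burst with which neutrophils and macrophages attack what they take up. Cybb (gp91phox, also called NOX2) and Cyba (p22phox) form its membrane core, a flavocytochrome, and each stabilises the other. Cytosolic subunits, among them Ncf1 (p47phox) and Ncf4 (p40phox), wait in the cytosol and join the core when the cell is stimulated, together with a Rac GTPase, which is Rac2 in blood cells. Nox4 also pairs with Cyba but needs none of the cytosolic subunits, makes mostly hydrogen peroxide, and is known from kidney, vessel wall and fibroblasts. Cyba is thus a partner of both enzymes.

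The genes lie on 5 chromosomes of the mouse, and their positions matched those of GENCODE M21 on GRCm38, although the sources used here named no build. Cybb (ENSMUSG00000015340) is at chromosome X, 9435252 to 9487771, on the minus strand, and Cyba (ENSMUSG00000006519) at chromosome 8, 122424776 to 122432930, minus strand. Ncf1 (ENSMUSG00000015950) is at chromosome 5, 134220053 to 134229625, minus strand. Ncf4 (ENSMUSG00000071715) is at chromosome 15, 78244801 to 78262580, plus strand, and Rac2 (ENSMUSG00000033220) on the same chromosome at 78559167 to 78572783, minus strand. Nox4 (ENSMUSG00000030562) is at chromosome 7, 87246096 to 87398710, plus strand. The end of Ncf1 overlaps Gtf2ird2 on the opposite strand from 134220053 to 134224355, so reads of that stretch cannot be assigned to 1 of them by strand. Gtf2ird2 had a mean of 1.45 ± 0.164 FPKM (SD, n = 5) in uninjured muscle and 1.09 ± 0.312 (n = 5) at day 3. Gm20388 spans all of Cyba on the other strand and was listed at 0 in every sample.

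Because the phagocyte genes moved together, the sequence at their transcription starts was read. RefSeq promoters (GRCm38.p6, 250 bases before to 50 after the start) were found for Cybb, Cyba, Ncf1 and Nox4, which is 4 of the 6 genes, and not for Ncf4 and Rac2. They were searched on both strands for GAGGAA, the core bound by PU.1, the product of the myeloid regulator gene Spi1. The promoters of Cybb, the catalytic gene of the phagocyte enzyme, and of Nox4, its counterpart outside phagocytes, are shown 5′ to 3′ on the strand of the gene, with the match in capitals as it reads on that strand. Cybb lies at chrX:9469275-9469574 on the minus strand and Nox4 at chr7:87246399-87246698 on the plus strand, both with a start inside the gene interval given above.
Cybb: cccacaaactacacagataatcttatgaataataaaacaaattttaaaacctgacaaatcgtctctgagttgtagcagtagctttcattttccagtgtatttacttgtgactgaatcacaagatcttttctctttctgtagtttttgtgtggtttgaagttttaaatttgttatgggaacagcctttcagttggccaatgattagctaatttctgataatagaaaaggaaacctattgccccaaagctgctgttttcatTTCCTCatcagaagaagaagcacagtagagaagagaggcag
Nox4: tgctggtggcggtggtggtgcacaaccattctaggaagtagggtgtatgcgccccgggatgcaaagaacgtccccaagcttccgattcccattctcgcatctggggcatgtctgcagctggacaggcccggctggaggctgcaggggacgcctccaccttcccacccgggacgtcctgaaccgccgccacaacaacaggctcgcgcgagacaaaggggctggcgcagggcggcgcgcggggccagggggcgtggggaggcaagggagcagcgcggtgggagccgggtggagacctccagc
Cybb held 1 match, on the reverse strand, with its first base at position 260 of the 300, which is 9 bases after the start. Cyba, Ncf1 and Nox4 held none in this window. Of all 32851 promoters of this length, 28.3% held at least 1 match, so a match is common and is given only as a description of the letters.

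Sequencing depth was similar across groups. Reads per sample, recovered as whole numbers from FPKM and gene length, totalled 14376395 to 24436763 with a median of 17398586. Muscle fibre markers (Ckm, Acta1, Myh4 and Tnnt3) summed to 16044 FPKM or more in every sample, as the label of the tissue says, and the labels named no sequencing batch. A pair of libraries stood apart from its group. Over all tested genes, day 3 replicate 5 lay nearest the mean of day 7, and day 7 replicate 5 lay nearest the mean of day 3, and in all 9 of the 27 libraries lay nearest another group's mean. The labels were kept as given, and the fold changes and tests of the 6 genes that rest on these libraries are also given without both.

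At day 3 all 5 phagocyte oxidase genes rose steeply, and Nox4 rose less. Mean Cybb went from 0.128 ± 0.116 FPKM (SD, n = 5) in uninjured muscle to 7.43 ± 2.91 (n = 5), which is 57.9 times the uninjured mean. Cyba went from 11.3 ± 3.04 to 122 ± 57.4 FPKM, 10.8 times, and Nox4 from 0.187 ± 0.109 to 0.603 ± 0.107 FPKM, 3.22 times. All 6 genes were called higher, in a comparison where 23.4% of all tested genes were called higher (limma on log2(FPKM + 1), Benjamini-Hochberg adjusted p under 0.05 over all tested genes). All 5 day 3 samples lay above all 5 uninjured samples for each of the 6 genes. The share of all tested genes with such a separation is not given here, so this describes the samples only.

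**Figure D1:**
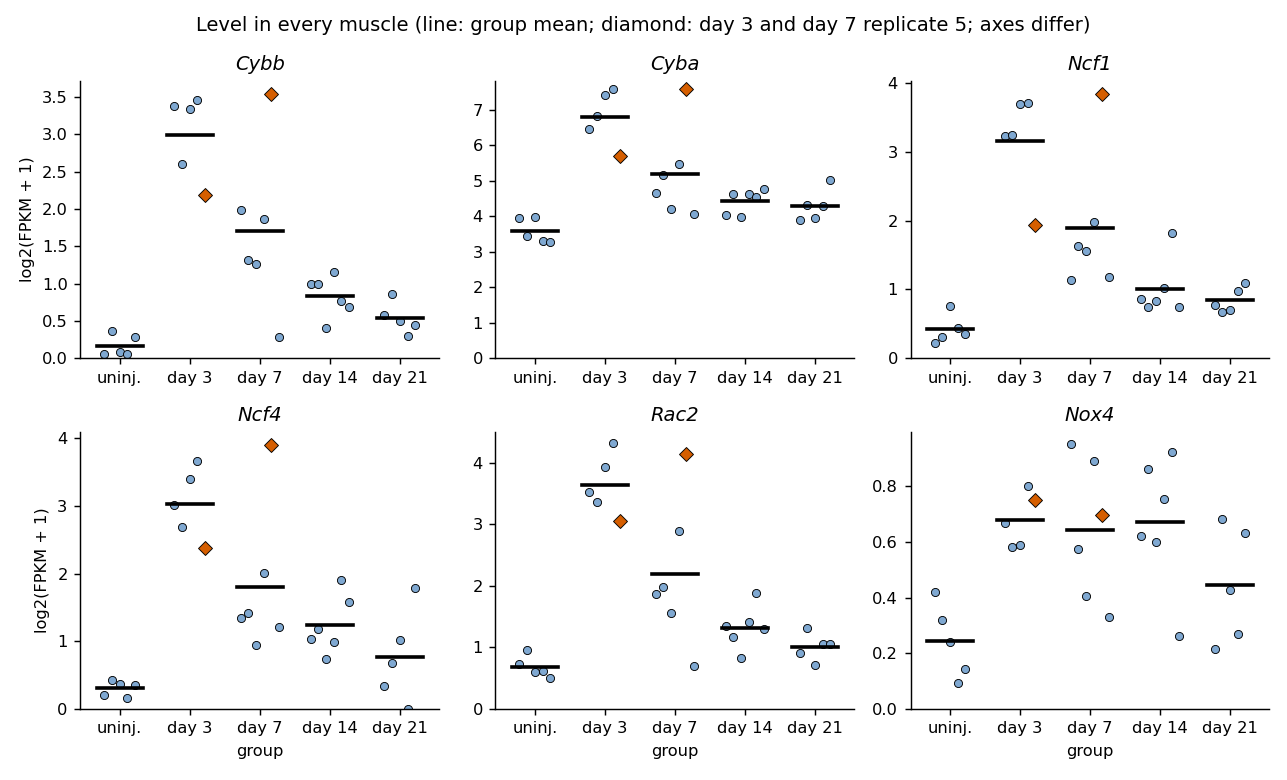
Level of the 6 genes in each of the 27 muscles on the log2(FPKM + 1) scale, 1 panel per gene with its own axis, with a line at each group mean and diamonds for replicate 5 of days 3 and 7. The 5 phagocyte genes peak at day 3 with day 7 replicate 5 among the day 3 values or above them, while Nox4 spreads between 0.200 and 0.936 FPKM at days 7 and 14.

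Of the membrane core, Cybb was close to the limit of detection in uninjured muscle. Its FPKM there was 0.0388, 0.290, 0.0587, 0.0420 and 0.212 in replicates 1 to 5, from 3 to 29 reads. At day 3 it was 9.40, 5.08, 9.12, 9.998 and 3.54 in replicates 1 to 5, from 438 to 1398 reads. The uninjured samples were at most 0.290 FPKM, and the lowest day 3 sample was replicate 5. The log2 fold change was 2.82 (SE 0.35, adjusted p = 1.83e-06 by limma), and 3.03 without the pair of libraries. With so few uninjured reads the ratio of means is imprecise.

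Cyba was the only phagocyte gene well expressed before injury. Its uninjured FPKM was 14.5, 9.84, 14.8, 8.76 and 8.74 in replicates 1 to 5, from 112 to 200 reads. At day 3 it was 86.8, 112.8, 169.8, 188.4 and 50.3. Replicate 5 was again the lowest at day 3 and was still above every uninjured sample. The log2 fold change of Cyba was 3.20 (SE 0.45, adjusted p = 6.34e-06 by limma).

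Of the cytosolic subunits, Ncf1, the organiser that carries the others to the membrane, had 0.164, 0.238, 0.698, 0.355 and 0.280 FPKM in uninjured replicates 1 to 5. At day 3 it had 8.37, 8.46, 11.9, 12.03 and 2.81 FPKM. Replicates 1 to 4 lay above 8 FPKM and replicate 5 well under them, with 219 reads. The log2 fold change of Ncf1 was 2.74 (SE 0.36, adjusted p = 3.60e-06 by limma).

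Ncf4, the subunit whose PX domain binds a phagosome lipid, had 0.149, 0.345, 0.295, 0.121 and 0.271 FPKM in the uninjured samples, from 3 to 12 reads. At day 3 it had 7.12, 5.48, 9.57, 11.6 and 4.21 FPKM. Rac2, the GTPase of blood cells, went from 0.653, 0.936, 0.522, 0.524 and 0.418 FPKM to 10.5, 9.36, 14.2, 18.95 and 7.33. Both genes had replicate 4 as the highest and replicate 5 as the lowest of the day 3 samples. The log2 fold change was 2.73 for Ncf4 (SE 0.39, adjusted p = 9.35e-06) and 2.96 for Rac2 (SE 0.38, adjusted p = 2.40e-06), both by limma.

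Nox4 behaved differently within the same samples. Its FPKM was 0.337, 0.247, 0.181, 0.0671 and 0.105 in uninjured replicates 1 to 5 and 0.588, 0.498, 0.506, 0.741 and 0.682 at day 3. The ranges did not overlap, and replicate 5, which was lowest for the phagocyte genes at day 3, was not lowest for Nox4. The log2 fold change was 0.44 (SE 0.13, adjusted p = 0.0104 by limma). Quantile normalization ended this call, with a value of 0.21 (adjusted p = 0.149 by limma). With both libraries left out the day 3 values were 3.48 for Cyba, 3.05 for Ncf1, 2.89 for Ncf4, 3.11 for Rac2 and 0.42 for Nox4, and all were called (highest adjusted p 0.0228, for Nox4, by limma). Of all tested genes 23.8% were then called higher.

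At day 7 the 6 genes were again called higher than in uninjured muscle, against 15% of all tested genes. The log2 fold changes of the phagocyte genes were 1.54 for Cybb, 1.61 for Cyba, 1.47 for Ncf1, 1.502 for Ncf4 and 1.51 for Rac2, with adjusted p-values by limma between 0.00183 and 0.00699. Nox4 changed by 0.40 (adjusted p = 0.0213 by limma), close to its day 3 value. The Nox4 call at day 7 was lost under quantile normalization (0.23, adjusted p = 0.130), when only the compared groups were fitted (adjusted p = 0.0563), and without uninjured replicate 4 or 5 or day 7 replicate 1 or 4 (adjusted p between 0.0507 and 0.0588).

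The spread among day 7 samples was wide for the phagocyte genes. Cybb had a lowest value of 0.221 FPKM, a median of 2.06 and a highest of 10.6. Cyba had 15.8, 29.4 and 191.5 FPKM, and Ncf1 1.19, 2.02 and 13.4. In Ncf4 the values were 0.930, 1.603 and 14.0 FPKM, and in Rac2 0.621, 2.80 and 16.6. The highest value of each was that of replicate 5, and the next highest were 2.95 for Cybb, 43.6 for Cyba, 2.94 for Ncf1, 3.02 for Ncf4 and 6.41 for Rac2. Replicate 6 was the lowest for Cybb, Cyba and Rac2, and its Cybb and Rac2 lay within the uninjured range.

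For Nox4 the day 7 values were 0.256 at the lowest, 0.555 at the median and 0.936 FPKM at the highest, and replicate 5 had 0.620. The library that was highest for the 5 phagocyte genes was therefore in the middle of the group for Nox4. Without both libraries the mean day 7 level was 1.74 ± 1.09 FPKM for Cybb (SD, n = 5) in place of 3.22 ± 3.76 (n = 6), and 27.2 ± 11.8 for Cyba in place of 54.5 ± 67.9. All 6 genes were then still called higher at day 7, with log2 fold changes of 1.08 to 1.17 for the phagocyte genes and 0.39 for Nox4 (adjusted p from 0.000359 to 0.0426 by limma), against 12.4% of all tested genes.

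From day 3 to day 7 the phagocyte genes went down in most samples, but no member passed the test with all libraries. The log2 differences were -1.29 for Cybb, -1.596 for Cyba, -1.27 for Ncf1, -1.23 for Ncf4 and -1.45 for Rac2, with adjusted p-values between 0.0714 and 0.101 by limma. In that comparison 0.0478% of all tested genes were called lower. Without the pair of libraries all 5 phagocyte genes were called lower, with log2 differences of -1.81 to -2.35 and adjusted p-values between 1.81e-07 and 4.66e-05, against 11.9% of tested genes. Leaving out either library alone also gave 5 calls. The pair was set apart because each of its libraries lay nearest the mean of the other time. Leaving it out widens the difference between these times by the choice itself, so these p-values are no independent evidence. Day 7 replicates 3 and 6, which lay nearest the uninjured and day 21 means, were kept. Nox4 differed by -0.036 with all libraries (adjusted p = 0.930) and by -0.029 without the pair (adjusted p = 0.925).

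At day 14 the 6 samples lay under all day 3 samples for each of the 5 phagocyte genes, and not for Nox4. These times were not tested against each other, and the share of all genes separated in this way is not given here. Cybb had 0.322, 0.838 and 1.22 FPKM at the lowest, median and highest, all 6 samples above the uninjured range. Cyba had 14.7, 22.9 and 26.1 FPKM, Ncf1 0.672, 0.797 and 2.53, Ncf4 0.660, 1.16 and 2.74, and Rac2 0.774, 1.49999 and 2.69. Ncf4 also lay above the uninjured range in 6 of 6 samples, and Cyba, Ncf1 and Rac2 overlapped it. Nox4 had 0.200, 0.611 and 0.895 FPKM, with 5 of 6 samples above the uninjured range.

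Of the 6 genes only Nox4 was called higher at day 14 (log2 fold change 0.43, SE 0.13, adjusted p = 0.0202 by limma), where 9.02% of tested genes were. The log2 fold changes of the phagocyte genes were 0.66 for Cybb, 0.84 for Cyba, 0.59 for Ncf1, 0.93 for Ncf4 and 0.64 for Rac2, with adjusted p-values between 0.0802 and 0.236. Their order relative to Nox4 depends on the scale, since as a ratio of mean FPKM to the uninjured mean Nox4 was at 3.25, above Cyba (1.85), Rac2 (2.55) and Ncf1 (3.12) and under Ncf4 (6.12) and Cybb (6.26). This count depended on the fit. Without the pair of libraries, which belong to other groups and enter through the shared estimate of the spread, Cybb, Cyba, Ncf1, Ncf4 and Nox4 were called (adjusted p from 0.0108 to 0.0301 by limma) and Rac2 was not (0.0656). Of all tested genes 11.6% were called higher at day 14 without the pair. Fitted on day 14 and uninjured samples alone, all 6 members were called, and no share of all genes is given for that fit. The Nox4 call was lost without uninjured replicate 4 (adjusted p = 0.0543), uninjured replicate 5 (0.0510) or day 14 replicate 5 (0.0578). It was also lost under TPM, in which every sample has an equal FPKM sum (adjusted p = 0.0503), and under quantile normalization (0.27, adjusted p = 0.0997).

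At day 21 none of the 6 genes passed the test against uninjured muscle, where 1.74% of tested genes were called higher. Cybb had 0.49997, 0.815, 0.411, 0.229 and 0.355 FPKM in replicates 1 to 5, and 4 of the 5 lay above the uninjured range. Cyba had 13.7, 18.7, 14.5, 18.5 and 31.3 FPKM, and Nox4 0.161, 0.603, 0.345, 0.204 and 0.550. For Cyba and Nox4 3 of 5 samples lay above the uninjured range. Ncf4 ranged from 0 reads in replicate 4, which allows up to 0.0988 FPKM by the limit of 3 reads, to 2.44 FPKM in replicate 5. Ncf1 ranged from 0.595 to 1.12 FPKM and Rac2 from 0.634 to 1.48. The log2 fold changes ran from 0.20 for Nox4 to 0.70 for Cyba, with adjusted p-values between 0.397 and 0.671 by limma. This does not show that the levels had returned to those before injury. The order depends on the scale. As a ratio of mean FPKM to the uninjured mean, Nox4 was at 1.99, above Cyba (1.71) and Rac2 (1.68). Ncf1 (2.31), Cybb (3.60) and Ncf4 (3.67) were above Nox4.

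**Figure D2:**
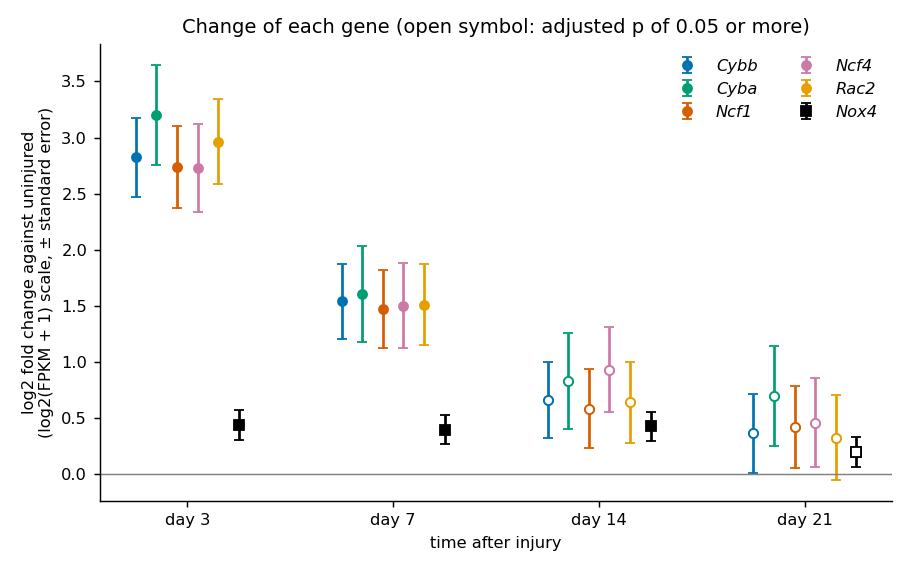
Log2 fold change of each gene against the 5 uninjured muscles on the log2(FPKM + 1) scale by time after injury, with bars of 1 standard error from limma and open symbols for an adjusted p of 0.05 or more. The phagocyte genes lie between 2.73 and 3.20 at day 3 and between 0.33 and 0.70 at day 21. Nox4 stays between 0.40 and 0.44 from day 3 to day 14, on a scale that understates changes of low genes.

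Between day 3 and day 21 the 5 phagocyte genes fell, and Nox4 did not pass the test. The log2 differences were -2.46 for Cybb, -2.50 for Cyba, -2.32 for Ncf1, -2.27 for Ncf4 and -2.64 for Rac2, with adjusted p-values from 4.63e-05 to 0.000270 by limma, in a comparison where 16.2% of tested genes were called lower. For each of these 5 genes all day 21 samples lay under all day 3 samples, a separation whose share over all genes is not given here. Nox4 differed by -0.23 (SE 0.13, adjusted p = 0.205), and 3 of its 5 day 21 samples lay under all day 3 samples. With sample quality weights Nox4 was called lower too (-0.26, adjusted p = 0.0442 by limma). Under TPM it was just short of a call (-0.47, adjusted p = 0.0521 by limma). With both libraries left out, the 5 phagocyte genes differed by -2.43 to -2.78 and were called, and Nox4 by -0.22 (adjusted p = 0.282 by limma). Of all tested genes 18.5% were then called lower. The steps in between had no call for any member. From day 7 to day 14 0.219% of tested genes were called lower, and from day 14 to day 21 0% were, where 455 genes had an unadjusted p under 0.05.

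Measured against its own day 3 mean, each phagocyte gene kept a small share by day 21. The day 21 mean was 6.22% of the day 3 mean for Cybb, 15.9% for Cyba, 9.21% for Ncf1, 11.4% for Ncf4 and 8.49% for Rac2. For Nox4 it was 61.8%, and at day 14 it was 100.9%. The genes also started from different shares, since the uninjured mean was 1.73% of the day 3 mean for Cybb, 9.30% for Cyba, 3.98% for Ncf1, 3.10% for Ncf4, 5.05% for Rac2 and 31.1% for Nox4. The day 14 shares of the phagocyte genes were 10.8% for Cybb, 17.2% for Cyba, 12.4% for Ncf1, 18.99% for Ncf4 and 12.9% for Rac2. The day 21 shares without the pair of libraries were 5.498% for Cybb to 13.9% for Cyba among the phagocyte genes and 63.9% for Nox4.

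**Figure D3:**
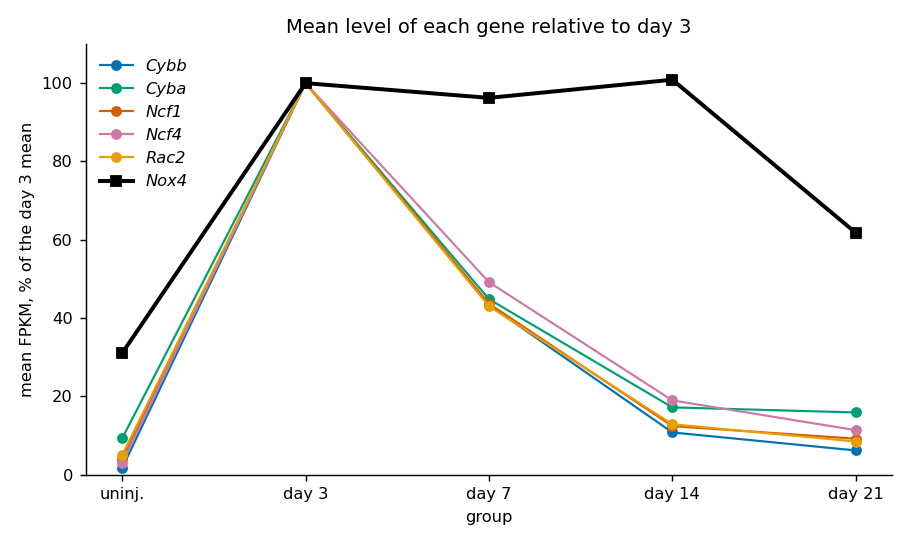
Mean FPKM of each gene in each group as a percentage of its day 3 mean, without error bars, the spread of the samples being shown in the plot of every muscle. At day 14 the 5 phagocyte genes are at 10.8% to 18.99% and Nox4 at 100.9%.

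To compare the phagocyte genes with Nox4 directly, the difference in log2(FPKM + 1) between each gene and Nox4 was taken within each sample and compared between groups with an exact two-sided permutation test over samples. There were 20 such tests of time points against uninjured muscle, given with raw p-values. At day 3 the difference from Nox4 had grown by 2.39 for Cybb, 2.77 for Cyba, 2.31 for Ncf1, 2.29 for Ncf4 and 2.53 for Rac2, each with an exact permutation p of 0.00794, the smallest that 5 against 5 samples allow. In each case all 5 day 3 samples lay above all 5 uninjured samples. At day 7 the growth was 1.07 to 1.21, with exact p-values from 0.00649 to 0.0260. The growth without the pair of libraries was 2.48 to 3.06 at day 3 and 0.69 to 0.79 at day 7, and all 5 genes still passed at both times (highest exact permutation p 0.0317).

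At day 14 the difference of Ncf4 from Nox4 had grown by 0.50 (exact permutation p = 0.0260) and those of the other phagocyte genes by 0.16 to 0.41 (p from 0.0823 to 0.446). The result of Ncf4 was lost on leaving out any 1 of the 5 uninjured samples (exact permutation p from 0.0571 to 0.105). At day 21 the values were 0.12 to 0.50, and none passed at the 0.05 level (exact permutation p from 0.0556 to 0.413). Between day 3 and day 21, a comparison added after the data were seen, the difference from Nox4 fell by 2.04 to 2.40 for the 5 genes, each with an exact permutation p of 0.00794, and by 2.22 to 2.57 without the pair of libraries, with the same p. The pseudocount weighs on these values because Nox4 is low. With 0.1 in place of 1, the day 7 difference passed for 2 genes in place of 5, while all 5 still passed at day 3, and at day 14 none passed. The genes lost at day 7 were Cyba (0.45, exact permutation p = 0.565), Ncf1 (1.44, p = 0.0649) and Rac2 (1.04, p = 0.0887). As a ratio of mean FPKM to the uninjured mean, Cyba was at 4.82 and Nox4 at 3.10 at day 7. Without the pair of libraries Cyba was at 2.40, under Nox4 at 3.06, and the other phagocyte genes were at 4.77 to 13.6.

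**Figure D4:**
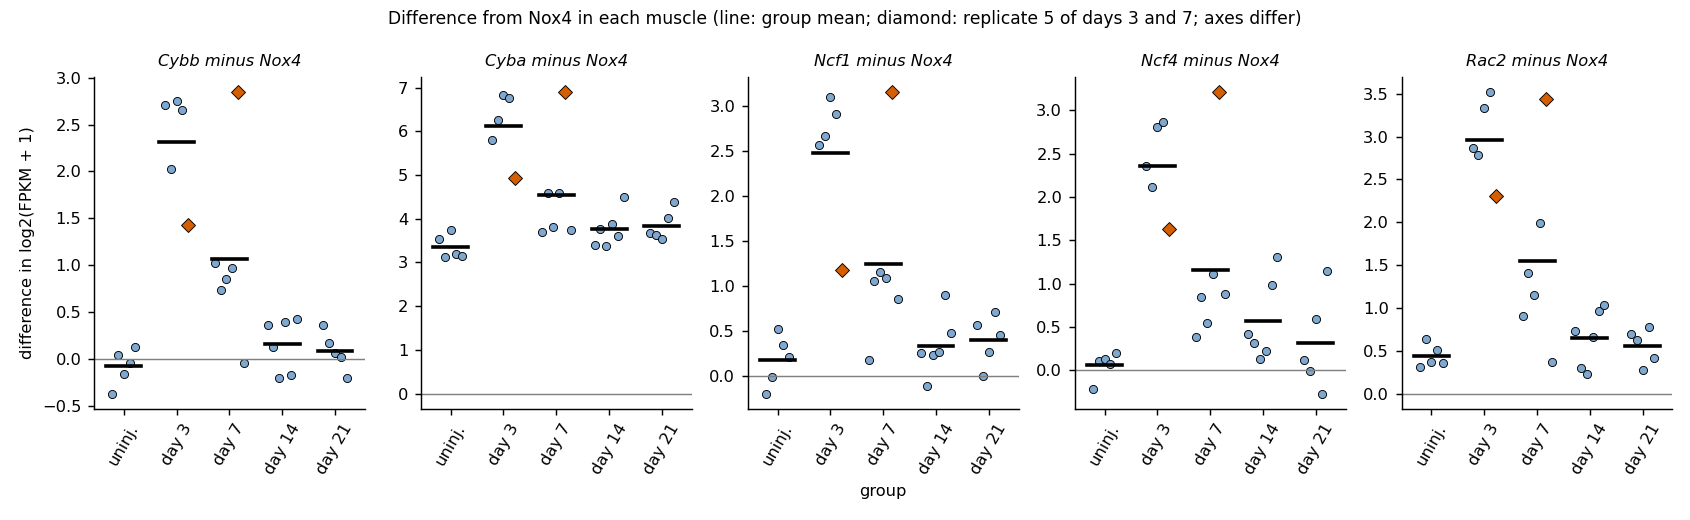
Difference in log2(FPKM + 1) between each phagocyte gene and Nox4 within each of the 27 muscles, 1 panel per gene with its own axis, with a line at each group mean and diamonds for replicate 5 of days 3 and 7. All day 3 points lie above all uninjured points, and at day 21 the 2 groups overlap.

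The scale decides how alike the phagocyte genes look. On the log2(FPKM + 1) scale their day 3 changes ran from 2.73 to 3.20, with standard errors of 0.35 to 0.45. As a ratio of mean FPKM they ran from 10.8 for Cyba through 19.8 for Rac2, 25.1 for Ncf1 and 32.2 for Ncf4 to 57.9 for Cybb, in the reverse order of their uninjured means. The added 1 understates the change of a gene that starts near 0. These differences among the 5 genes were not tested.

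In level per length Cyba stood far above its partners. Its FPKM was the highest of the 6 genes in 27 of 27 samples, and it made up 89.2% ± 3.30 (SD, n = 5) of the summed FPKM of the 5 phagocyte genes in uninjured muscle, 76.4% ± 3.83 (n = 5) at day 3 and 85.9% ± 1.97 (n = 5) at day 21. Cybb made up 1.13% ± 1.09, 4.98% ± 1.62 and 2.25% ± 1.19 of that sum. The share of Cybb was 0.251% to 2.49% in the uninjured samples and 3.60% to 7.69% at day 3, and that of Cyba 84.5% to 93.5% and 71.0% to 79.9%, so for neither gene did the groups overlap.

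After Cyba came Rac2, above Cybb in 26 of 27 samples, above Ncf1 in 23 and above Ncf4 in 21, and above all 3 in each day 3 sample. Ncf1 and Ncf4 changed places, with Ncf1 above in 14 of 27 samples, and both were above Cybb in most samples, 19 for Ncf1 and 20 for Ncf4. At day 3 the means of Ncf1 (8.71 ± 3.75), Ncf4 (7.60 ± 3.02) and Cybb (7.43 ± 2.91 FPKM) lay within 1 SD of each other. Nox4 was above Cybb in 3 of 5 uninjured samples, in 2 of 6 at day 14 and in none at day 3.

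Across the 27 samples the phagocyte genes ran closely with each other. Pearson's r of log2(FPKM + 1) was 0.917 to 0.972 among the 5 genes and 0.454 to 0.564 between each of them and Nox4. These are descriptions, since the samples fall into groups set by time and share scaling and depth. Ranked by r with Cybb among 14629 other tested genes, Rac2 stood at 29, Ncf1 at 247, Cyba at 249, Ncf4 at 409 and Nox4 at 3009. The 5 genes nearest Cybb were Ms4a7 (r = 0.987), Ctss (0.986), Lyz2 (0.983), Plek (0.983) and Csf1r (0.982). Ctss encodes the lysosomal protease cathepsin S, Lyz2 the lysozyme of myeloid cells, and Csf1r the receptor of macrophage colony-stimulating factor. The 5 nearest Nox4 were Ephb3 (0.892), Fbln1 (0.877), Scarf2 (0.867), Hjurp (0.865) and Usp11 (0.847), of which Fbln1 encodes the matrix protein fibulin-1.

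Among genes that work with the phagocyte enzyme, Cybc1, a chaperone of the flavocytochrome, rose at day 3 by 0.95 on the log2 scale (adjusted p = 0.00119 by limma). Rac1, the Rac of most cells, and Rap1a, a GTPase found with the core, had 0.26 (adjusted p = 0.391) and -0.05 (0.795). Cybc1, Rac1 and Rap1a were not called at day 7, 14 or 21 against uninjured muscle. The other NOX and DUOX genes (Nox1, Nox3, Noxa1, Noxo1, Duox1, Duox2, Duoxa1 and Duoxa2) were too low to test in all 8 cases, with a summed level of at most 1.56 FPKM in any sample.

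A list of 15 genes concerned with activation of the oxidase or its Rac, not all of them activators, held Vav and PI3-kinase genes, protein kinase C isoforms, Syk and Btk. Of these 15 genes 11 rose at day 3 and 9 at day 7. At day 14 none was higher and 1 was lower, and at day 21 none was called. The median log2 fold change was 1.15 at day 3 and 0.10 at day 21, beside 0.012 and 0.014 over all tested genes. Of the most abundant 3, Arhgdib, the inhibitor that holds Rac in the cytosol of blood cells, rose at day 3 by 1.97 (adjusted p = 0.000605), and Pik3cd (0.24, adjusted p = 0.371) and Pik3c3 (0.02, 0.914) did not pass. Without the pair of libraries the counts higher were 11, 7, 2 and 0 at the 4 times. Over all tested genes 23.4%, 15%, 9.02% and 1.74% were higher at these times, and 23.8%, 12.4%, 11.6% and 2.52% without the pair. At day 14 11.3% of tested genes were lower.

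Phagocyte receptors and their adaptors, not all of them activating, rose with the oxidase genes. The list held 14 genes of Fc, integrin, Toll-like, lectin and chemoattractant receptors and of adaptors. All 12 tested rose at day 3, 11 at day 7, 3 at day 14 and none at day 21, and without the pair 12, 11, 6 and 1. Over all tested genes 23.4%, 15%, 9.02% and 1.74% were higher at the 4 times, and 23.8%, 12.4%, 11.6% and 2.52% without the pair. The median log2 fold change of the 12 genes was 3.10 at day 3, 1.74 at day 7 and 0.34 at day 21. Fcer1g, the signalling chain of Fc receptors, went from 3.55 ± 1.35 to 172 ± 59.9 FPKM at day 3 (log2 fold change 5.21, adjusted p = 7.50e-08 by limma), and Tyrobp, a similar adaptor, changed by 5.13 (adjusted p = 5.64e-07). Fcgr3, an activating IgG receptor, changed by 4.30 (adjusted p = 2.66e-07).

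The tested regulators of myeloid genes were all called higher at day 3, and 2 of them were still called at day 21. Spi1, whose product PU.1 drives myeloid genes including oxidase subunits, went from 0.592 ± 0.255 to 21.98 ± 12.9 FPKM at day 3, and its log2 fold change of 3.66 was called (adjusted p = 2.69e-06 by limma). Its day 7 value of 2.15 was called too (adjusted p = 0.00139), and those of 1.10 at day 14 (0.0832) and 0.52 at day 21 (0.582) were not. Irf8, a partner of PU.1 in monocytes, rose by 1.64 at day 3 (adjusted p = 7.91e-05) and 0.76 at day 7 (0.0380). Cebpa rose by 2.83 at day 3 and was not called at day 21 (0.51, adjusted p = 0.389). Cebpb, which is also used outside myeloid cells, rose by 0.61 at day 3 and was still called at day 21, by 0.91 (adjusted p = 0.00360). The other was Runx1, a regulator of blood cell formation named here after its values were seen. Its log2 fold changes were 2.05, 1.75, 2.15 and 1.68 at the 4 times, each called (highest adjusted p 0.0188 by limma). Bulk RNA does not tell which cells carried Runx1 or Cebpb, myeloid or other, and this was not tested. Of the 6 tested of 7 regulators, 6, 5, 3 and 2 were higher at the 4 times, and without the pair of libraries 5, 4, 4 and 2. Over all tested genes 23.4%, 15%, 9.02% and 1.74% were higher, and 23.8%, 12.4%, 11.6% and 2.52% without the pair.

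Antioxidant genes, among them but not only enzymes that remove peroxide and superoxide, did not move as a group. Of 21 antioxidant genes 7 rose and 4 fell at day 3, 5 rose and 5 fell at day 7, 2 rose and 4 fell at day 14, and 1 rose at day 21. Over all tested genes 23.4% were higher and 19.8% lower at day 3, and 15% and 14.4% at day 7. The shares were 9.02% and 11.3% at day 14 and 1.74% and 1.69% at day 21, so several of these counts are near the background. Without the pair of libraries 8, 5, 4 and 2 rose and 4, 4, 5 and 0 fell at the 4 times. Over all tested genes 23.8%, 12.4%, 11.6% and 2.52% were then higher and 19.4%, 10.9%, 12.4% and 2.28% lower. The median log2 fold change at day 3 was 0.045. Prdx3, the mitochondrial peroxiredoxin, fell from 197 ± 6.15 to 91.8 ± 19.6 FPKM at day 3 (log2 fold change -1.12, adjusted p = 6.35e-05 by limma), and Gpx4, which reduces lipid peroxides, changed by -0.58 (adjusted p = 0.0335). Gpx3, the secreted glutathione peroxidase, was higher at day 3 (0.68, adjusted p = 0.0383) and at day 21 (1.10, adjusted p = 0.0214).

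Markers of leukocytes moved with the phagocyte genes. The 10 macrophage markers were all called higher at days 3 and 7, 3 at day 14 and none at day 21, and without the pair of libraries 10, 9, 6 and 2. In uninjured muscle their FPKM summed to between 20.7 and 27.5, and the day 3 samples lay between 374 and 1369. Day 7 ran from 56.2 up to 1377, day 14 from 45.1 up to 116, and day 21 from 37.3 up to 63.7. The lowest of day 3 and the highest of day 7 were replicate 5, as for the oxidase genes. C1qb, a complement chain made by macrophages, changed by 5.18 at day 3 (adjusted p = 2.66e-07), C1qa by 5.11 and Cd68 by 5.53. The 4 markers of all leukocytes were called at days 3 and 7, 1 at day 14 (3 without the pair) and none at day 21. Over all tested genes 23.4%, 15%, 9.02% and 1.74% were higher at the 4 times, and 23.8%, 12.4%, 11.6% and 2.52% without the pair.

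Of 11 neutrophil markers only 3 were tested (S100a8, S100a9 and Csf3r), which were called higher at day 3, 2 of them at day 7 (1 without the pair) and none later. Their summed level over all 11 was 0.456 to 4.31 FPKM in uninjured muscle, where 5 of the 11 were at 0 in every sample, between 20.7 and 39.4 in the day 3 samples, and between 2.19 and 99.8 in the day 7 samples, the highest being replicate 5. The day 3 means were 12.7 FPKM for S100a8, 10.2 for S100a9 and 3.62 for Csf3r. Those of the untested markers lay between 0.0102 and 0.652 FPKM, so most of the sum came from S100a8 and S100a9. S100a8 changed by 2.92 at day 3 (adjusted p = 0.000373) and -0.02 at day 21 (0.995). Over all tested genes 23.4% were higher at day 3 and 15% at day 7. T cell markers were too low to test, and of 2 tested B cell markers Cd79b rose at day 3. In bulk muscle, more cells of a type and more RNA per cell cannot be told apart, and the part of cell numbers in the change of the oxidase genes was not tested.

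Nox4 was set beside stromal markers. Of 5 fibroblast markers 4 were higher at days 3, 7 and 14 and 1 at day 21, and their summed level lay between 46.8 and 114 FPKM in uninjured muscle, between 288 and 569 in the day 3 samples, between 118 and 388 at day 14, and between 106 and 168 at day 21. Col1a1, a fibrillar collagen chain, had log2 fold changes of 3.66, 3.54, 2.50 and 1.44 at the 4 times, each called, and Dpt had 1.04, 1.53, 1.14 and 0.86, the last not called (adjusted p = 0.101). Dcn, the proteoglycan decorin, was called at no time (0.10, 0.61, 0.38 and 0.17, lowest adjusted p 0.0759). Leaving out the pair of libraries gave 4, 5, 4 and 1 fibroblast markers higher. Of 3 myofibroblast markers 2, 1, 1 and 0 were higher. Of 5 endothelial markers 2 were lower at day 3 and 1 at each later time, of 4 smooth muscle and pericyte markers 2 were lower at day 3 and 1 at day 7, and of 4 muscle fibre markers 4, 2, 1 and 0 were lower. Without the pair of libraries none of the smooth muscle and muscle fibre markers was lower at day 7. The endothelial marker lower at each later time was Kdr. Of the 3 satellite cell genes 2 were higher at day 3 and 1 at each later time. Over all tested genes 23.4%, 15%, 9.02% and 1.74% were higher at the 4 times, and 19.8%, 14.4%, 11.3% and 1.69% lower. With lists this short, a single call at days 3 to 14 says little beside these shares. The part of stromal cells in the level of Nox4 was not tested.

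**Figure D5:**
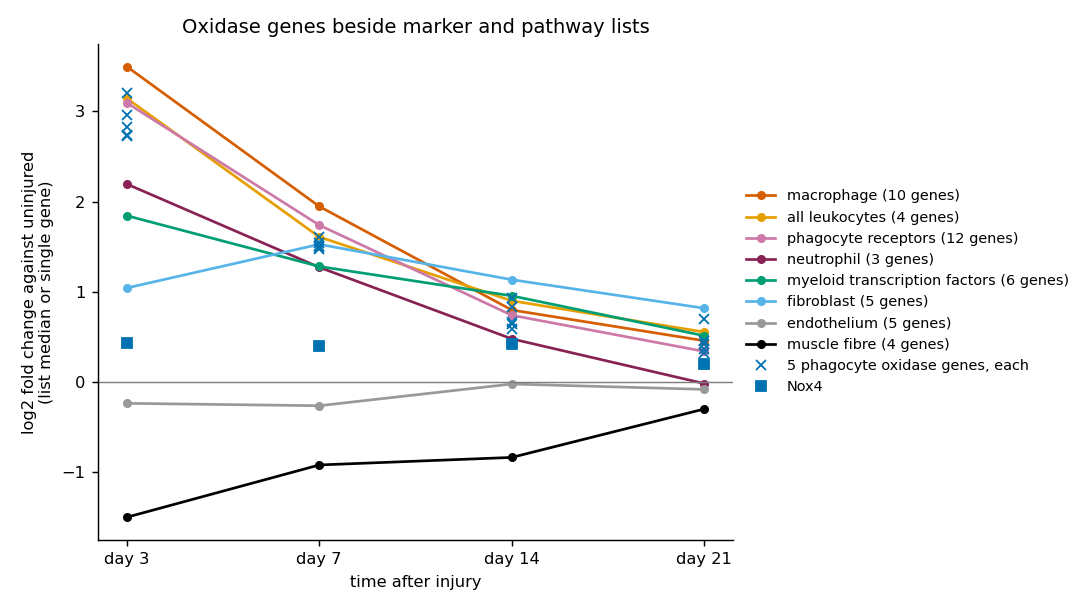
Log2 fold change against uninjured muscle by time after injury, as the median over the tested genes of 8 marker and pathway lists (lines) and for the single oxidase genes (crosses for the 5 phagocyte genes, squares for Nox4). The phagocyte genes lie near the medians of leukocytes and phagocyte receptors at each time, and the muscle fibre median is lowest, at -1.497 at day 3.

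The values also depend on how FPKM is scaled. The fragments to which the FPKM had been scaled were 0.782 times the recovered total in uninjured samples and 1.25 times at day 3 on average. With every sample brought to an equal FPKM sum (TPM), the median log2 fold change of all tested genes at day 3 went from 0.012 to 0.51, and the share of calls that were higher from 54.1% to 95.5%. With each sample's own read total as denominator it was 91.4%, and under quantile normalization 42.6%. Relative to the shifted median the phagocyte genes kept log2 changes of 2.68 to 3.48 at day 3 under TPM, and Nox4 had 0.17, in place of 0.42 with the deposited scaling. Over the deposited values and the 4 other scalings the day 3 difference of Nox4 from the median of all genes was between 0.17 and 0.42.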

How the data were processed

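Tibialis anterior RNA was sequenced in 27 samples, grouped by their titles as uninjured control or 3, 7, 14 or 21 days after VML. The authors aligned reads with HISAT2 2.0.5, counted them per gene with featureCounts 1.5.0-p3 (versions from the submitters' processing notes) and deposited FPKM for 54532 genes, with a denominator not given in the sources used here. FPKM and gene length gave whole reads for 100% of the genes with a nonzero value in each sample. The tolerance was 0.1 of a read, and for large counts it grew in proportion to the count. Reads per gene set the precision of low values, and limits cover counting error only.

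Values were transformed to log2(FPKM + 1), so fold changes of low genes are understated. Genes entered the test when 5 or more samples reached 0.5 FPKM, which left 14630. All 27 samples formed 1 linear model in limma 3.58.1 (R 4.3.3), with a mean per group and a variance trend. Two-sided p-values were adjusted by Benjamini-Hochberg over all tested genes and called under 0.05. The difference between a gene and Nox4 was tested with an exact permutation test over samples. Both tests were tried on simulated data with known answers. Other steps used Python 3.11.15, pandas 2.3.3, numpy 2.4.6 and matplotlib 3.10.9.

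The members and gene lists were chosen with earlier results of these data known. All 6 members are described in every group. Genes of a list are named if among its 3 highest in mean FPKM, with Spi1 and Irf8 always named, together with the 5 genes of highest Pearson correlation with Cybb and with Nox4. Gene positions in the table were compared with GENCODE M21 (GRCm38): 54409 genes were found and 98.3% had the same coordinates. Some genes of the lists are not reported here. Alternatives covered pseudocount, filter, scaling, sample weights, blocks, groups in the fit and libraries left out.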

Additional observations from a re-analysis of the deposited data

Results flagged for a closer look

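In 7 of the 30 combinations of gene and group, 1 sample stood far from the rest of its group by Dixon's test at the 95% level, which chance alone gives in about 1 in 20 groups. Of these, 5 came from 1 library, day 7 replicate 5, and so are not independent of each other. In it Cybb was at 10.6 FPKM where the next highest day 7 sample had 2.95, Cyba at 191.5 against 43.6, Ncf1 at 13.4 against 2.94, Ncf4 at 14.0 against 3.02 and Rac2 at 16.6 against 6.41. Nox4 in that library was at 0.620 FPKM, under the group's highest value of 0.936.

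The others were single values. Ncf1 was at 2.53 FPKM in day 14 replicate 5, where the next highest sample had 1.02, and the same library had the highest day 14 values of Ncf4, Rac2 and Nox4. Cyba was at 31.3 FPKM in day 21 replicate 5, where the next highest had 18.7, and Ncf4 was highest in that library too, at 2.44.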

How the results depend on the processing

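Counts of called genes were recomputed under 14 other settings of the fit and with each of the 27 samples left out. The count of members higher at day 14 was the least stable, at 1 with the settings of the report. It was 4 with a pseudocount of 0.1, 2 with 0.5, 0 with an FPKM minimum of 1 (which leaves Nox4 untested), 0 under TPM, 0 under quantile normalization, 4 with sample quality weights, 6 with only the compared groups in the fit, and 5 without day 3 replicate 5 and day 7 replicate 5, a choice made after seeing the data. The count lower at day 7 against day 3 went from 0 to 5 with sample quality weights and to 5 without those libraries. Over all tested genes 0.0478% were lower there with the settings of the report and 11.9% without those libraries. At day 14 1320 of 14630 tested genes were higher with the settings of the report, 1678 under TPM and 1007 under quantile normalization. Without those libraries 1704 were higher. For the other settings named here no count over all genes is given. For the difference from Nox4, a pseudocount of 0.1 gave 2 genes at day 7 and 0 at day 14, and TPM gave 2 at day 14 and 1 at day 21. The causes were not tested. Replicate numbers did not pair the samples (correlations of -0.52 to 0.57 over 51 pairs, median -0.0031, over 0.1 in 15), nor did the letters of the labels (median 0.020 over 49 pairs). With a replicate block by letter the day 14 count was 2, and a replicate block changed no other count of members by over 1.5 times.

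With single samples left out, the count higher than in uninjured muscle stayed at 6 for day 3 and 0 for day 21. It ranged from 5 to 6 for day 7 and from 0 to 4 for day 14. Counts lower ranged from 0 to 5 for day 7 against day 3 (5 without day 3 replicate 5 or day 7 replicate 5), 0 to 1 for day 14 against day 7 (Cybb, without day 7 replicate 6), and stayed at 0 for day 21 against day 14 and at 5 for day 21 against day 3. At day 14 the count was 0 without uninjured replicate 4 or 5 or day 14 replicate 5, and 4 without day 7 replicate 5. For the difference from Nox4 the count stayed at 5 for day 3 and for day 21 against day 3. It ranged from 3 to 5 for day 7 (3 without uninjured replicate 1), from 0 to 2 for day 14 (0 without uninjured replicate 1, 2, 4 or 5, 2 without day 14 replicate 3, and 1 without uninjured replicate 3, with Cyba in place of Ncf4) and from 0 to 1 for day 21 (1 without uninjured replicate 3 or day 21 replicate 3).

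The values whose sign turned were none of them called. Nox4 from day 7 to day 14 became -0.112 under TPM, -0.0526 with each sample's own read total, -0.00714 with quality weights, and -0.00998, -0.0223, -0.0188 and -0.0345 without day 14 replicate 2, day 14 replicate 5, day 7 replicate 3 and day 7 replicate 6, the highest such value being 0.1095. Nox4 from day 3 to day 7 became 0.0201 under quantile normalization, 0.0418 with quality weights, 0.0355 and 0.0247 with a replicate block by number and by letter, and 0.0106 and 0.0262 without day 7 replicate 3 and 6, the lowest such value being -0.0987. Ncf1 from day 14 to day 21 became 0.00133 without day 14 replicate 5, the lowest such value being -0.22. With a pseudocount of 0.1 the difference from Nox4 became -0.40 for Cyba and -0.11 for Rac2 at day 14 and -0.032 for Rac2 at day 21. Depth limits the uninjured values of Cybb and Ncf4, which rest on as few as 3 reads.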

Other observations

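The genes whose level ran closest to Cybb covered a wide range of abundance. Lyz2, the lysozyme of myeloid cells, had 16.9 ± 3.39 FPKM (SD, n = 5) in uninjured muscle, 1165 ± 633 (n = 5) at day 3 and 35.9 ± 8.14 (n = 5) at day 21. It was still called higher at day 14 (log2 fold change 1.78, adjusted p = 0.0334 by limma), as was Ctss (1.79, adjusted p = 0.0487), whereas Csf1r (1.005, adjusted p = 0.0999) and Ms4a7 (0.71, adjusted p = 0.239) were not. At day 21 none of these 4 genes passed, with log2 fold changes of 0.36 for Ms4a7 to 1.31 for Ctss.

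Of the 5 genes nearest Nox4, all were called higher at days 3 and 7, 4 at day 14 and none at day 21. Over all tested genes 23.4%, 15%, 9.02% and 1.74% were higher at these times. Ephb3, an ephrin receptor, had 0.225 ± 0.0982 FPKM in uninjured muscle and 1.63 ± 0.0849 at day 3, with log2 fold changes of 1.11 at day 3, 1.07 at day 7 and 0.97 at day 14, each called by limma (adjusted p = 0.000237, 0.000750 and 0.00257). Scarf2, a scavenger receptor family gene, had 1.40, 1.37 and 1.17 at these days, each called. Fbln1 was called at days 3 and 7 and not at day 14 (0.60, adjusted p = 0.0983). Hjurp, a chaperone of the centromere histone, had 1.19, 1.38 and 1.35 at these 3 days and Usp11, a deubiquitinase, 0.77, 0.60 and 0.60, each called. These genes were found by their likeness to Nox4 in these samples, so their course is no independent evidence.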
